A study of Mus musculus with 6 samples.

Results

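The semaphorins, their plexin receptors and the neuropilins were followed across the cell subtypes of the neonatal mouse cortex. The members are all genes of the count table with a symbol of the forms Sema3a to Sema7g or Plxna1 to Plxnd9, together with Nrp1 and Nrp2, which gave 31 of 17418 genes. They comprise 20 semaphorins (7 of class 3, 6 of class 4, 2 of class 5, 4 of class 6 and 1 of class 7), 9 plexins and 2 neuropilins. Single cells were profiled by InDrop, which captures a cell with a barcoded bead in a droplet and marks each transcript with a unique molecular identifier (UMI). The cortex of 3 wild type (WT) mice of the strain FVB.129P2-Pde6b+ Tyrc-ch/AntJ was compared with that of 3 mice (Fmr1-KO) from FVB.129P2-Pde6b+ Tyrc-ch Fmr1tm1Cgr/J, all at postnatal day 5 and untreated. Both strains carry the Pde6b+ and Tyrc-ch alleles, and the Fmr1 disruption is constitutive rather than limited to a cell type. Mice of both sexes were used, and the tissue was dissociated with papain before encapsulation. Batch 1, with bead version V2, held WT 1, Fmr1-KO 1 and Fmr1-KO 2, whereas batch 2, with bead version V3.8, held WT 2, WT 3 and Fmr1-KO 3. Effects of the batch and of the bead version cannot be told apart.

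Semaphorins are secreted or membrane-bound guidance cues that steer axons, migrating cells and growing vessels. Plexins are their receptors and carry an intracellular domain that acts on small GTPases. Neuropilins have no such domain and join class A plexins as the binding partner of most class 3 semaphorins, and Nrp1 is also a co-receptor of the vascular growth factor VEGF. In the developing cortex these families are known for the sorting of axons and interneurons, for myelinating glia and for the patterning of vessels.

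The table held 18393 cells of 17 libraries, of which 17280 remained once the 1113 cells marked as doublets by the authors were left out. A mouse contributed from 7909181 to 20629134 UMIs, and its median cell from 1957 to 4908. Libraries of the same mouse shared cell barcodes in 3307 pairs, of which 93.26% carried the same subtype, while barcodes shared between mice (468 pairs) did so in 16.67%. The levels and tests below were therefore also computed with only the deepest cell per barcode and mouse, which left 14836 cells. Every one of the 31 members kept its highest subtype in that case, and no member passed the test between genotypes with or without the repeated barcodes. The subtype names are those deposited. Each of 15 marker lists had its highest summed level in the subtype it stands for, and 67 of 77 markers peaked there. The exceptions included the OPC list, of which only 1 of 5 markers was highest in OPC_1. The list of neural stem cell markers, a group the study names beside the OPCs, was highest in OPC_2 (2633 CPM, beside 1200 CPM in Microglia). The OPC list summed to 6718 CPM in OPC_2.

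Fmr1 was measured first, since it is the gene disrupted in the Fmr1-KO mice. Over all cells its level was 68.4, 74.1 and 72.5 CPM (counts per 1000000 UMIs) in the WT mice and 17.2, 19.9 and 16.1 CPM in the Fmr1-KO mice. The groups were far apart, with a log2 fold change of -2.02 ± 0.10 (SE, n = 3 per genotype, FDR = 0.00075 in edgeR's quasi-likelihood test). The counted reads come from the 3′ end of the transcript, so they do not read the disrupted site itself. Without WT 1, WT 2 or Fmr1-KO 3 the fold change was -2.16, -2.00 and -1.88, with FDR values of 0.0136, 0.0143 and 0.0229.

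Levels were taken as CPM of the UMIs summed per mouse and subtype and averaged over mice with at least 10 cells of the subtype. A total of 15 subtypes had such a value in at least 3 mice. Levels are compared between subtypes for a gene and are not ranked between genes, apart from a cutoff of 50 CPM that is the same for all. The subtypes had been defined by clustering these same cells, members included, so the levels are given as a description, with no test. For Sema3c this is explicit, since the study lists it among the markers of SVZ cells.

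Most members were expressed somewhere in the cortex, each with its own preferred subtypes. In their highest subtype, 26 of the 31 members (83.9%) reached at least 50 CPM, beside 54.8% of all genes. Members at this level were also more uneven between subtypes, with a median of 0.41 on the tau scale (0 for equal log levels in all subtypes, 1 for expression in a single subtype), whereas the median of all genes at this level was 0.26. Their highest subtype exceeded the next by a median of 1.62-fold, beside 1.34-fold for all such genes. The highest subtype was most often SVZ or Endothelial (5 of the 26 members each), where 9.14% and 6% of the 9552 genes at 50 CPM or more had theirs. Oligodendrocytes, Astrocytes_1 and Excitatory followed with 3 members each, beside 6.84%, 4.31% and 8.19% of these genes. Ganglionic, Interneuron, OPC_1, OPC_2 and Fibroblasts were the highest subtype of none of the 26, and of 8.2%, 2.13%, 3.27%, 6.28% and 5.91% of these genes. Ependymal, Microglia and Ganglionic cells held 4 members each at 50 CPM or more (12.9%), beside 27.5%, 21% and 24.2% of all genes. SVZ held 17 (54.8%, beside 24.7% of all genes), and Excitatory and Interneuron held 13 each (41.9%, beside 25.7% and 24.5%).

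For only 6 members did the mice of the highest subtype lie entirely above those of the next: Sema3c, Sema3d, Sema3g, Sema6d, Plxna1 and Plxnb3. For the other 25 the ranges of the highest and the next subtype overlapped. Subtypes of a mouse are paired, however, and for 6 of these 25 the same subtype was highest in every mouse that had a value for it, namely Sema5a, Sema6a, Sema7a, Plxna2, Plxnc1 and Plxnd1. For the remaining 19 the highest subtype differed between mice.

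Promoter sequences are shown for 6 members that had the same highest subtype in every mouse with a value, as RefSeq windows of the GRCm38.p6 build running from 250 bases before to 50 bases after a start of transcription in RefSeq. For Sema3c and Sema3d that start differs from the gene start given further on, which comes from GENCODE. Such windows were at hand for 26 of the 31 members. The genes and the motifs were picked after the levels were known, and a match describes letters in the window, not a binding site. The members highest in Oligodendrocytes were searched on both strands for ACAAAG or ACAATG, the core bound by SOX proteins such as Sox10 (capitals, found in 28.6% of 32851 windows). It was in 3 of the 7 windows of the 4 members highest in Oligodendrocytes. These were the only windows of Plxnb3 and Sema3d and 1 of the 4 windows of Sema4a, and that of Sema5a did not hold it. Windows of members highest in other subtypes also held it, among them that of Sema3c below, where it is not in capitals. Sema3d lies at chr5:12382916-12383215 (plus strand), Plxnb3 at chrX:73756853-73757152 (plus) and Sema5a at chr15:32244563-32244862 (plus).
Sema3d: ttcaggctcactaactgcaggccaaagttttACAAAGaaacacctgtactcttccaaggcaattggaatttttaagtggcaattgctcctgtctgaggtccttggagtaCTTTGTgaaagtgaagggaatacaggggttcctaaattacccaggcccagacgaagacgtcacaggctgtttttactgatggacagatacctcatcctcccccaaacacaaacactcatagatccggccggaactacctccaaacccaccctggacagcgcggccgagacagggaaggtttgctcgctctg
Plxnb3: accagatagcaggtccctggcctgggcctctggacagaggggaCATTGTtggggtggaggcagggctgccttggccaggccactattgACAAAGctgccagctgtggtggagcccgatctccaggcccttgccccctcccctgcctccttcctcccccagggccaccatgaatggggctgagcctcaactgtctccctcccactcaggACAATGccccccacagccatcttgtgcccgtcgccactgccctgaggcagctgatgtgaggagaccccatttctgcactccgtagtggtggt
Sema5a: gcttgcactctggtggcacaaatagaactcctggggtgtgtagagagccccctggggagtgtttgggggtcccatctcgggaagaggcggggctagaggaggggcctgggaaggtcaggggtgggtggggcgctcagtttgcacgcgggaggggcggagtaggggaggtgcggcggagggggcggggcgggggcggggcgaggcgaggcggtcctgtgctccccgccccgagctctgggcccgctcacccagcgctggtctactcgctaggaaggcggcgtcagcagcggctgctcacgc

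The members highest in Endothelial cells were searched for AGGAAG or CGGAAG, the core bound by ETS factors (capitals, found in 46.5% of all windows). The windows of Nrp1, Plxnd1 and Sema3g held it, and those of Nrp2 and Sema7a did not (3 of 5 windows). Windows of members highest in other subtypes also held it, among them those of Sema5a and Plxnb3 above, where it is not in capitals. Sema3g lies at chr14:31217623-31217922 (plus strand) and Plxnd1 at chr6:115994956-115995255 (minus strand, written in the direction of the gene).
Sema3g: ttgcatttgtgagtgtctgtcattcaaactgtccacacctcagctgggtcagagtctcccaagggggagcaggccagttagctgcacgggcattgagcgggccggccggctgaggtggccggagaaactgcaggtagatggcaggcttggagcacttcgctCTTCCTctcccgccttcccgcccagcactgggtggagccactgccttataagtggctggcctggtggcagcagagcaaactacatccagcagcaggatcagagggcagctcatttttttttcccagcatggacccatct
Plxnd1: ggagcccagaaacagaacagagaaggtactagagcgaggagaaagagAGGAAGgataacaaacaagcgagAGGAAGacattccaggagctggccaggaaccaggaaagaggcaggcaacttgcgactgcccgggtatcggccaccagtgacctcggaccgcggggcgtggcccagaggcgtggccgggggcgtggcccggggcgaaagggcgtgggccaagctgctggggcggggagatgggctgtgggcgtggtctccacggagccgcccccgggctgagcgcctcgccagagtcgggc

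For the members highest in SVZ cells the T-box motif GGTGTGA was searched, since Eomes, a T-box factor, marks these cells. It was found in 1 of the 6 windows of 5 members, that of Sema6c, and in 3.98% of all windows. Windows of Nrp2 and Sema4a, highest in other subtypes, also held it. The window of Sema3c at chr5:17574566-17574865 (plus strand) did not contain it.
Sema3c: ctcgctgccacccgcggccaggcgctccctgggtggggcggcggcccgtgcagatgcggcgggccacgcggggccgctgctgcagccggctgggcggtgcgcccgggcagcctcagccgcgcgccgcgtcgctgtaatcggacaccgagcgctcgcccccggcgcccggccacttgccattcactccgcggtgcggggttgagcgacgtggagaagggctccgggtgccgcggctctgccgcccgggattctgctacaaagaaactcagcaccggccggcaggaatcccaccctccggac

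The class 3 semaphorins are secreted and, apart from Sema3e, act largely through neuropilins. Sema3c, a cue for migrating cells and axons, reached 679 ± 249 CPM (SD, n = 4) in SVZ cells, 20-fold above the 33.9 ± 21.0 CPM (n = 6) of Interneuron. Its values in SVZ were 640 CPM in WT 1 and 342, 862 and 872 CPM in Fmr1-KO 1, Fmr1-KO 2 and Fmr1-KO 3. The remaining mice had fewer than 10 SVZ cells, so this level rests on 1 WT mouse and few cells, 65 in all. Even the lowest of these mice was above every mouse of any other subtype. Sema3a, the classical repellent of cortical axons, was also highest in SVZ (59.9 ± 30.6 CPM, n = 4), but only 13 UMIs lay behind this value. The next subtype, Excitatory, had 30.8 ± 13.5 CPM (n = 6) and overlapped it.

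Sema3d was found mainly in Oligodendrocytes and OPC_1. It ranged from 93.4 to 191 CPM over the 6 mice in Oligodendrocytes (median 178) and from 51.5 to 87.3 CPM in OPC_1 (median 71.5), and the lowest mouse, WT 1, still lay above all OPC_1 values. Fibroblasts followed with 16.7 ± 14.2 CPM (n = 3), and 9 of the other subtypes held at most 2 UMIs of it in all cells. OPC_2, the subtype where the neural stem cell markers were highest, was among those. It held 0 UMIs, which allows up to 9.69 CPM, so OPC_1 and OPC_2 differed here.

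Sema3g was found mainly in Endothelial. Its level in Endothelial was 75.1, 82.9 and 44.2 CPM in the WT mice and 49.2, 104 and 41.5 CPM in the Fmr1-KO mice, 15.8-fold above Pericytes on average. In Pericytes it was seen in WT 1 (15.4 CPM) and WT 2 (9.74 CPM) and at 0 in the other 4 mice. No UMI was counted in CR, Ependymal, Fibroblasts, Microglia, OPC_2 or SVZ cells, with upper limits from 1.16 CPM in Microglia to 14.4 CPM in SVZ.

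The other class 3 genes stayed low. Sema3e peaked at 28.7 ± 25.2 CPM in Ependymal and 18.7 ± 10.8 CPM in Excitatory (n = 6 each), Sema3f at 19.2 ± 2.56 CPM in Excitatory (n = 6), and Sema3b at 14.4 ± 18.1 CPM in Fibroblasts (n = 3, 6 UMIs). The highest subtype of these genes cannot be told from the next at this depth. Sema3d, Sema3a, Sema3e and Sema3c lie in this order on the plus strand of chromosome 5 (mm10), at chr5:12383385-12588948, chr5:13125414-13602565, chr5:14025276-14256689 and chr5:17574281-17730268, and had their highest levels in Oligodendrocytes, SVZ, Ependymal and SVZ.

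**Figure D1:**
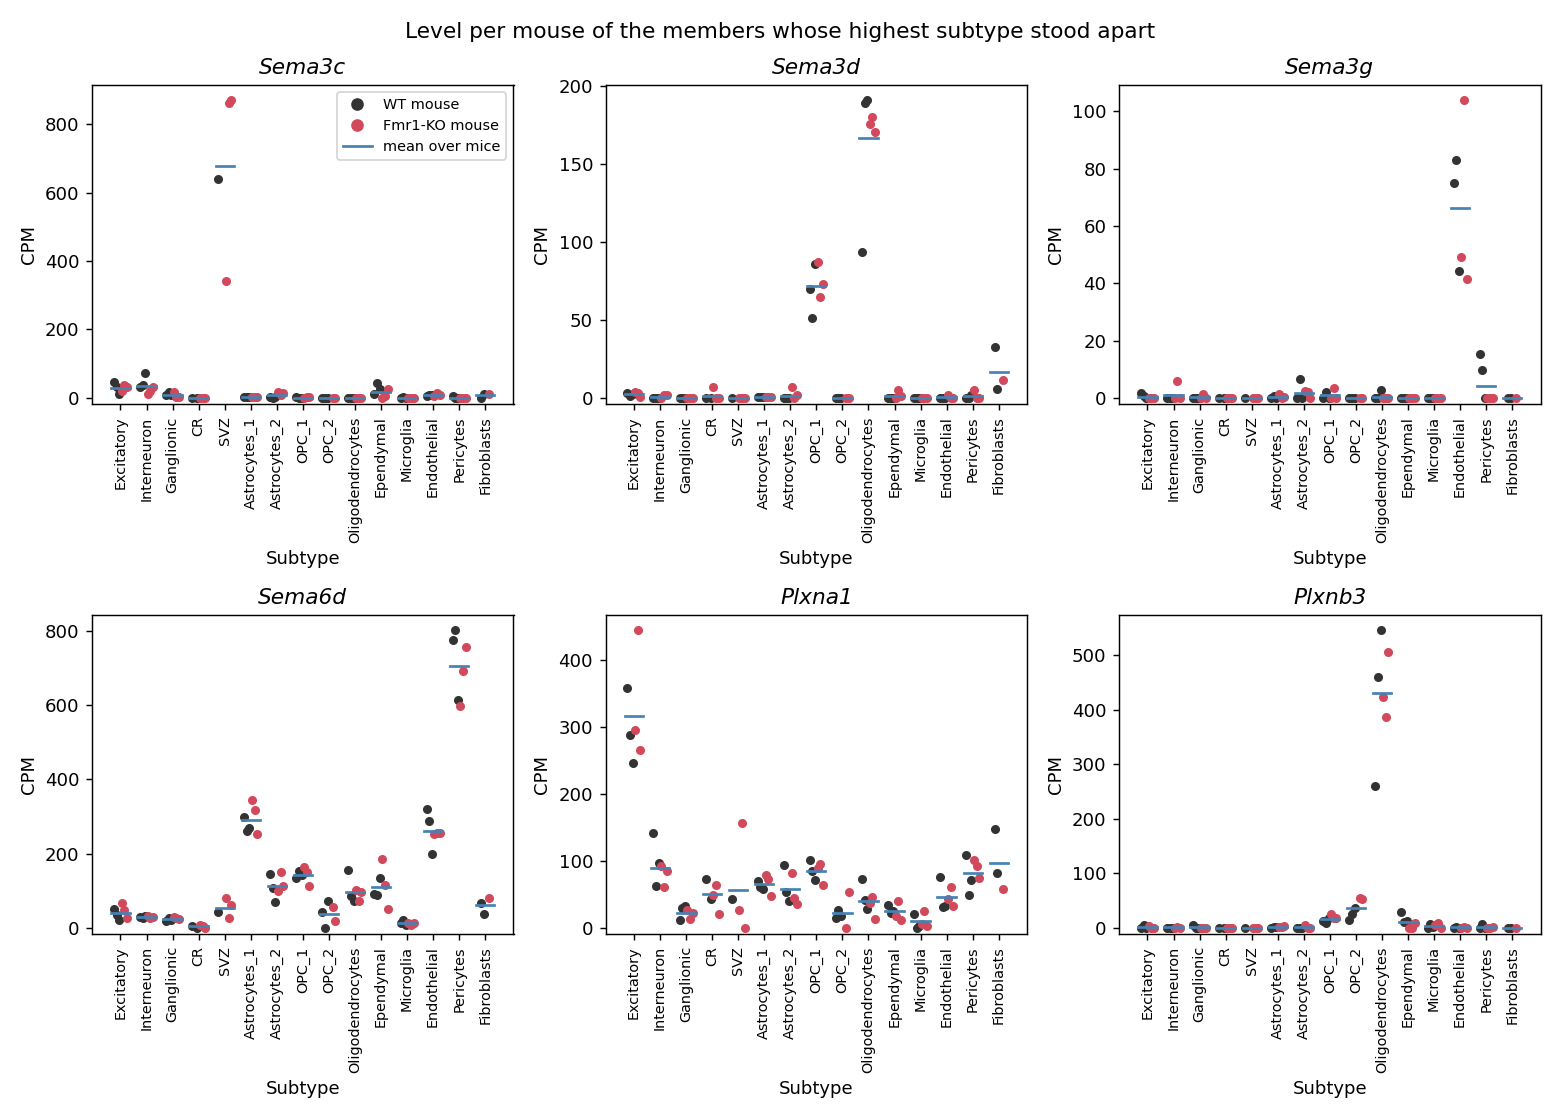
Level in CPM (linear axis) of each mouse with at least 10 cells of the subtype, for the 6 members whose highest subtype did not overlap with the next. Black points are WT and red points Fmr1-KO mice, the blue line is the mean, and in each panel 1 subtype lies above all others.

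The class 4 semaphorins are membrane proteins that act mainly through class B plexins. Sema4c was nearly equal in Pericytes (176 ± 26.2 CPM) and Endothelial (173 ± 56.1 CPM, n = 6 each). Sema4d, which binds Plxnb1, was high in Microglia (114 ± 41.4 CPM) and Oligodendrocytes (108 ± 33.2 CPM), and the next subtype was at 26.4 CPM. Sema4g was highest in the Cajal-Retzius cells, named CR (141 ± 64.6 CPM, n = 5), followed by SVZ (83.6 ± 22.2 CPM, n = 4), which overlapped. Sema4b reached 70.1 ± 22.1 CPM in Astrocytes_1 and Sema4f 53.8 ± 11.3 CPM in Excitatory (n = 6 each). Sema4a was low throughout and its highest value, 37.1 ± 40.3 CPM in Oligodendrocytes, was no larger than its spread over mice.

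Both class 5 members were highest in glia. Sema5a, which can attract or repel axons depending on its proteoglycan partners, ranged from 444 to 893 CPM in Oligodendrocytes (median 722) and from 266 to 465 CPM in OPC_1 (median 387), with an overlap of these 2 ranges. Oligodendrocytes were its highest subtype in all 6 mice. Sema5b was highest in Astrocytes_2 (94.0 ± 14.7 CPM), with 72.9 ± 15.3 CPM in Astrocytes_1, 65.7 ± 8.33 CPM in OPC_1 and 63.0 ± 20.7 CPM in Oligodendrocytes (n = 6 each), all overlapping with their neighbours. In Endothelial and Microglia it was at 2.07 and 1.45 CPM.

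Among the transmembrane class 6 genes, Sema6d was highest in Pericytes, where the 6 mice ranged from 597 to 805 CPM (median 726). Astrocytes_1 (291 ± 36.1 CPM) and Endothelial (262 ± 40.4 CPM) followed and overlapped each other. Sema6a, a ligand of Plxna2 and Plxna4, was broad, with 399 ± 78.1 CPM in Astrocytes_1 and at least 50 CPM in 12 of 15 subtypes, but only 8.40 CPM in Microglia. Sema6c was neuronal, with 161 ± 85.4 CPM in SVZ (n = 4), 99.6 ± 16.8 CPM in Interneuron, 91.4 ± 11.9 CPM in CR (n = 5) and 89.5 ± 13.4 CPM in Excitatory, none of which stood apart from its neighbour. Sema6b did not exceed 32.6 ± 12.3 CPM (Excitatory, n = 6). The only class 7 member, Sema7a, is anchored to the membrane by a lipid and signals through Plxnc1 and integrins. It was shared by Endothelial (327 to 489 CPM, median 453) and Excitatory (267 to 380 CPM, median 335), while Interneuron followed at 93.6 ± 26.3 CPM.

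Class A plexins, the signalling partners of the neuropilins, were mainly neuronal. Plxna1 ranged from 246 to 445 CPM in Excitatory (median 291) and no mouse of another subtype reached this range, with Fibroblasts next (95.9 ± 46.2 CPM, n = 3). Plxna2 was highest in SVZ (419 ± 80.9 CPM, n = 4), followed by Interneuron (277 ± 39.1 CPM), Excitatory (211 ± 55.3 CPM) and Ganglionic (149 ± 22.5 CPM, n = 6 each). SVZ and Interneuron overlapped, as did Interneuron and Excitatory. Plxna4 had 300 ± 52.0 CPM in Excitatory, 268 ± 113 CPM in SVZ and 255 ± 23.4 CPM in Interneuron, in overlapping ranges. Plxna3, on the X chromosome, was at 87.2, 77.4 and 73.2 CPM in SVZ, Excitatory and Interneuron, and only 19 UMIs lay behind the first of these.

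Class B plexins were mostly carried by other cells. Plxnb1 was highest in Astrocytes_1 (238 to 277 CPM, median 253) and Astrocytes_2 (191 to 274 CPM, median 225), and every Astrocytes_2 mouse lay above the Pericytes that followed (95.9 ± 22.6 CPM). Plxnb2 was the most widespread member, at 50 CPM or more in 14 of 15 subtypes, led by Ependymal (598 ± 91.3 CPM), Microglia (516 ± 95 CPM) and Pericytes (399 ± 60.2 CPM, n = 6 each). In contrast, Plxnb3 reached 259.5, 459.6 and 547 CPM in the WT and 424, 386 and 506 CPM in the Fmr1-KO mice in Oligodendrocytes, 11.8-fold above OPC_2 (36.6 ± 17.6 CPM, n = 5) on average. OPC_1 had 16.6 ± 5.93 CPM, and no UMI of Plxnb3 was counted in CR, Fibroblasts or SVZ. Thus Plxnb3 was concentrated in Oligodendrocytes, whereas Sema5a and Sema3d were also found in OPC_1.

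Plxnc1, the receptor of Sema7a, was highest in Astrocytes_2 (173 ± 45.9 CPM), followed by OPC_1 (92.0 ± 8.72 CPM, n = 6 each). Plxnd1, which binds Sema3e without a neuropilin and is known from vessels, was highest in Endothelial (171 to 358 CPM, median 278). CR followed with 176 ± 31.6 CPM (n = 5) and Excitatory with 118 ± 29.3 CPM (n = 6). No UMI of Plxnd1 was seen in SVZ or OPC_2, which allows up to 14.4 and 9.69 CPM.

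Nrp1 was highest in Endothelial. Its level was 841, 1452 and 1418 CPM in the WT mice and 978, 923 and 1297 CPM in the Fmr1-KO mice, so the 3 mice of batch 1 (841 to 978 CPM) lay below those of batch 2 (1297 to 1452 CPM) whatever their genotype. SVZ (645 ± 217 CPM, n = 4), Microglia (419 ± 80.5 CPM) and Pericytes (406 ± 53.2 CPM, n = 6 each) followed, with overlaps between neighbours, whereas Oligodendrocytes and CR were at 10.7 and 6.14 CPM. Nrp2 had 68.2 ± 14.4 CPM in Endothelial and 59.0 ± 70.7 CPM in SVZ, where the mice ranged from 0 to 157 CPM. Batches were also apart for Sema6a in Astrocytes_1 (449 to 492 CPM in batch 1, 293 to 357 CPM in batch 2) and for Plxnb3 in Oligodendrocytes (259.5 to 424 and 459.6 to 547 CPM), so part of the spread over mice followed the batch.

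Known ligand and receptor pairs were then set side by side. In all 13 pairs the ligand and the receptor had their highest levels in different subtypes. How often this holds for unrelated genes was not tested. For Sema3c and Nrp2 it did not hold without Fmr1-KO 1 or without Fmr1-KO 3, where both were highest in SVZ. Sema7a was highest in Endothelial, where Plxnc1 was at 3.58 CPM, and Plxnc1 in Astrocytes_2, where Sema7a was at 10.7 CPM. Sema3e peaked in Ependymal and Plxnd1 in Endothelial, where Sema3e was at 0.99 CPM. Sema4d was highest in Microglia, where Plxnb1 was at 4.78 CPM, and was at 20.8 CPM in Astrocytes_1, the highest subtype of Plxnb1. For Sema5a and Plxna1 the highest subtypes were Oligodendrocytes and Excitatory, with Plxna1 at 39.3 CPM in the former and Sema5a at 37.3 CPM in the latter. Sema5b was at 8.92 CPM in Excitatory, and Plxna1 at 57.9 CPM in Astrocytes_2, the highest subtype of Sema5b. Other pairs were both present in the highest subtype of 1 partner. Sema6a was at 107 CPM in Excitatory, beside 300 CPM of Plxna4, and at 62.8 CPM in SVZ, beside 419 CPM of Plxna2. In Pericytes, Sema6d (707 CPM) was found with Plxna1 (82.1 CPM). In SVZ cells Sema3c (679 CPM) and Sema3a (59.9 CPM) were found with Nrp1 (645 CPM) and Nrp2 (59.0 CPM), and in Pericytes Sema4c (176 CPM) with Plxnb2 (399 CPM). Sema3f and Nrp2 were both present in Excitatory, at 19.2 and 43.2 CPM.

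Among the 325 pairs of the 26 members at 50 CPM or more, the profiles over the 15 subtypes that were most alike on the log2(CPM + 1) scale were those of Sema3a and Sema3c (Pearson's r = 0.86, Spearman's rho = 0.835), Sema4f and Sema4g (0.849 and 0.828) and Plxna2 and Sema3a (0.827 and 0.824). The median r of all pairs was 0.07. The 15 points share their mice, libraries and cells, and the values are a description.

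Next, the members were compared between Fmr1-KO and WT mice in the 10 subtypes with at least 100 cells per genotype. UMIs summed per mouse were tested with edgeR's quasi-likelihood test with the batch as a term, and a gene was tested where 15% or more of the cells held a UMI of it. A call needed an FDR under 0.01 and a change of at least 15%. In this way 22 members were tested in at least 1 subtype, 79 tests in all. Sema3a, Sema3b, Sema3c, Sema3e, Sema3f, Sema3g, Sema4a, Sema4f and Sema6b did not pass the filter in any subtype. The animals were separate mice, and 3 against 3 cannot give an exact permutation p below 0.10 for a single value.

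No member was called in any subtype with edgeR, nor at an FDR under 0.05, and the smallest FDR was 0.296. An unadjusted p under 0.05 was found in 5 of 79 tests (6.33%), beside 5.04% of the 38812 tests of all genes. DESeq2 also gave 0 calls and 2 of 79 tests at an unadjusted p under 0.05, beside 1.65% of its tests of all genes. Calls were rare for all genes, with 0.0155% of the tests. They made up 0.0208% of the genes in Astrocytes_1, 0.0499% in Ganglionic, 0.0245% in OPC_1, 0.0423% in Oligodendrocytes and 0.0% in the other 6 subtypes. The median log2 fold change of the 79 tests was -0.02, 36 were positive, and the median size was 0.13 beside a median SE of 0.18. The log2 values of the members lay between -0.67 and 0.37. Groups of mice that did not overlap were seen in 3 tests (3.8%), beside 7.06% of the tests of all genes. The sign was the same within both batches in 36 of 79 tests.

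**Figure D2:**
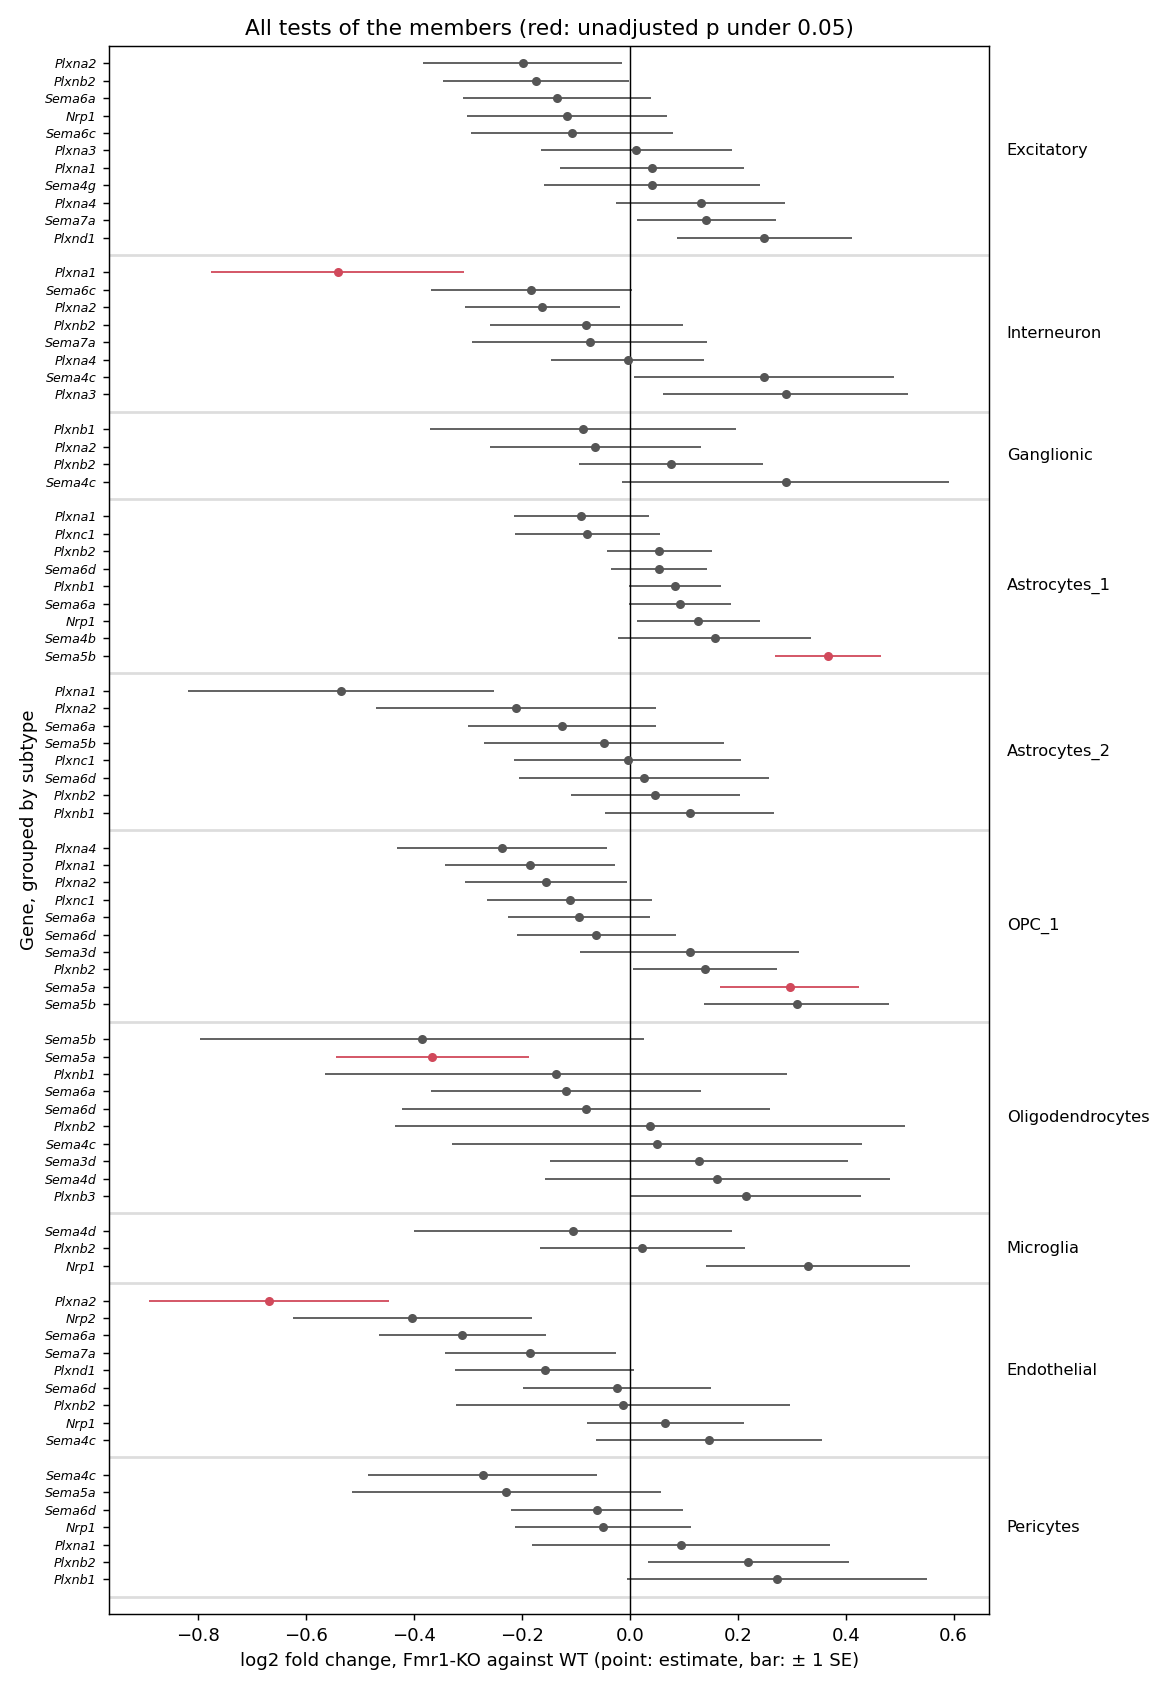
Difference of Fmr1-KO from WT mice as a log2 fold change (horizontal axis, point and bar of 1 SE, n = 3 mice per genotype) of each member tested, grouped by subtype (vertical axis). Red marks the 5 tests at an unadjusted p under 0.05, and most bars cross or lie near 0.

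Sema5b in Astrocytes_1 had the smallest p. Its level was 69.6, 60.8 and 54.0 CPM in the WT mice and 86.1, 94.9 and 72.2 CPM in the Fmr1-KO mice. All Fmr1-KO mice were above all WT mice, with a log2 fold change of 0.37 ± 0.098 (SE, n = 3 per genotype, edgeR unadjusted p = 0.00496, FDR = 0.924), which is not a call. The log2 ratio was 0.37 within batch 1 and 0.33 within batch 2, and 4.65% of all genes in this subtype had an unadjusted p under 0.05. In OPC_1, the levels of Sema5b likewise did not overlap (52.0 to 66.7 CPM in WT, 70.4 to 74.0 CPM in Fmr1-KO), with a log2 fold change of 0.31 ± 0.17 (edgeR unadjusted p = 0.0918). In Oligodendrocytes, the value was -0.39. In Astrocytes_2, the highest subtype of Sema5b, the log2 fold change was -0.04 ± 0.24 (SE) in a fit with no filter on low counts. In Astrocytes_1 the summed level of the 5 oligodendrocyte markers was also higher in the Fmr1-KO mice (256 to 352 CPM, beside 229 to 246 CPM in WT). Mog was at 0 in all mice, and most of the sum was Sirt2. Their part in the Sema5b values was not tested.

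Plxna2 was lower in Endothelial cells of the Fmr1-KO mice. The WT mice had 108.1, 126 and 161 CPM and the Fmr1-KO mice 108.2, 81.3 and 69.9 CPM, so the groups met at 108 CPM, the values of WT 1 and Fmr1-KO 1. The log2 fold change was -0.67 ± 0.22 (SE, n = 3 per genotype, edgeR unadjusted p = 0.00768, FDR = 0.296), with -0.19 within batch 1 and -1.03 within batch 2. Without Fmr1-KO 3 the log2 fold change was -0.23, and without WT 1 it was -0.94. Of all genes in this subtype, 11.0% had an unadjusted p under 0.05, the highest share of the 10 subtypes. The estimates of Nrp2 (-0.40 ± 0.22) and Sema6a (-0.31 ± 0.15) were also negative, at unadjusted p values of 0.0859 and 0.0603 in edgeR, whereas Nrp1 (0.07 ± 0.15) and Sema4c (0.15 ± 0.21) were positive. In total, 7 of 9 members had negative estimates there, with a median of -0.16, beside 50% of all genes and a median of 0.00. For Nrp2 the groups did not overlap (67.8 to 91.5 CPM in WT, 52.9 to 62.2 CPM in Fmr1-KO). The pericyte markers, 5 of 5 above 0, varied in this subtype from 250 to 910 CPM in WT and from 449 to 1357 CPM in Fmr1-KO mice, and their part was not tested.

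The other 3 tests rested on WT 1, the only WT mouse of batch 1. Plxna1 in Interneuron was at 141, 62.2 and 96.0 CPM in WT and 91.4, 61.2 and 85.0 CPM in Fmr1-KO mice. Its log2 fold change was -0.54 ± 0.23 (edgeR unadjusted p = 0.0347, FDR = 0.998), but the ratio was -0.88 within batch 1 and 0.10 within batch 2. Sema5a in OPC_1 had 266, 379 and 465 CPM in WT and 369, 395 and 444 CPM in Fmr1-KO mice, where only WT 1 fell outside the Fmr1-KO range on the low side. The log2 fold change was 0.30 ± 0.13 (edgeR unadjusted p = 0.0362, FDR = 0.947), with 0.52 and 0.07 within the batches. In Oligodendrocytes the same gene was at 893, 704 and 818 CPM in WT and 534, 444 and 740 CPM in Fmr1-KO mice, with -0.37 ± 0.18 (edgeR unadjusted p = 0.0405, FDR = 0.999) and ratios of -0.87 and -0.04. Both groups overlapped in each of these tests. Without WT 1 the 3 log2 fold changes were -0.02 (Plxna1), 0.10 (Sema5a in OPC_1) and -0.04 (Sema5a in Oligodendrocytes). The share of all genes at an unadjusted p under 0.05 was 4.53% in Interneuron, 4.24% in OPC_1 and 4.4% in Oligodendrocytes.

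**Figure D3:**
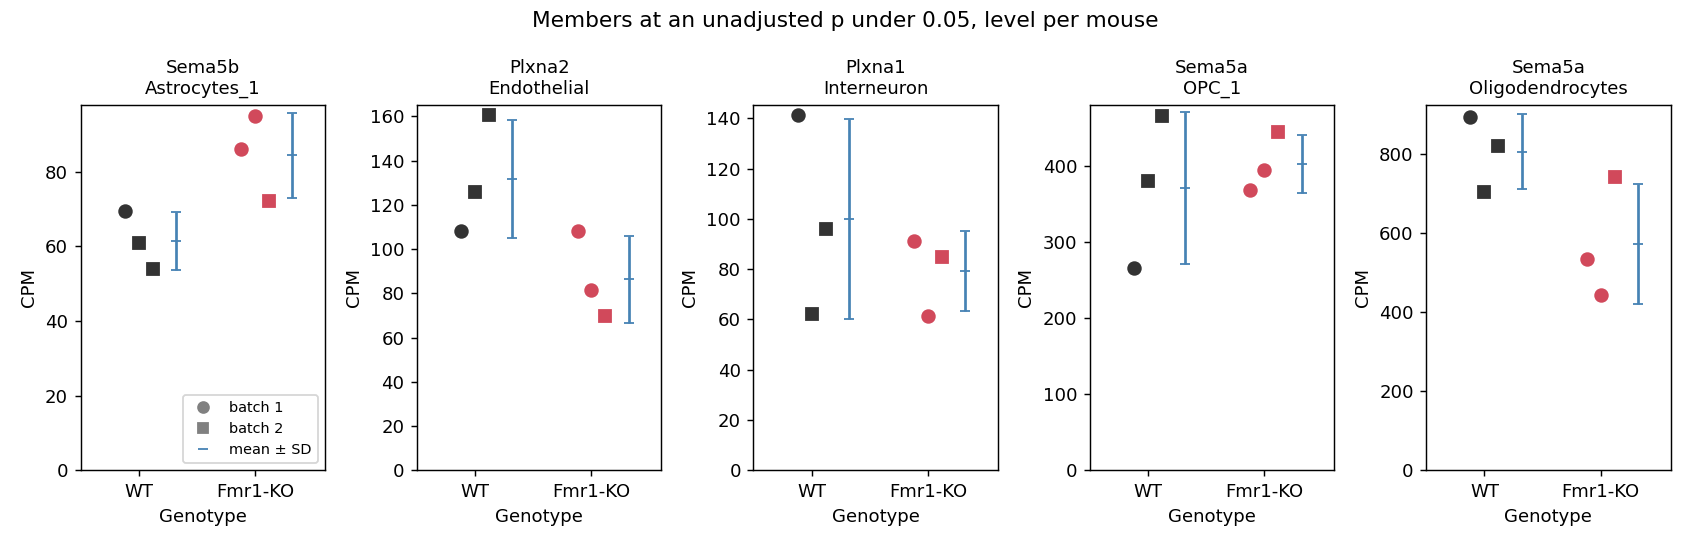
Level in CPM of the 5 tests at an unadjusted p under 0.05, with a point per mouse (black WT, red Fmr1-KO, circles batch 1, squares batch 2) and the mean ± SD of the 3 mice beside them. Only Sema5b in Astrocytes_1 shows groups that do not overlap.

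In the 5 remaining subtypes no member reached an unadjusted p under 0.05 in edgeR, where 4.26% (Astrocytes_2), 3.48% (Excitatory), 6.31% (Ganglionic), 3.32% (Microglia) and 3.29% (Pericytes) of all genes did. The estimates ranged from -0.54 to 0.11 in Astrocytes_2, from -0.20 to 0.25 in Excitatory, from -0.09 to 0.29 in Ganglionic, from -0.11 to 0.33 in Microglia and from -0.27 to 0.27 in Pericytes. Plxnb2, tested in all 10 subtypes, lay between -0.17 and 0.22. Plxnb3 in Oligodendrocytes was at 0.21 and Sema3d at 0.13 there and 0.11 in OPC_1.

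Whether the effect of the genotype differed between subtypes was tested with an interaction term and the mouse as a block. None of the 22 members tested was called at an FDR under 0.05 and 0 had an unadjusted p under 0.05 in edgeR, beside 0.0% and 1.99% of 8075 genes. The smallest unadjusted p was 0.0942, for Sema4c. The number of members at an unadjusted p under 0.05 was 4 without WT 1, 2 without Fmr1-KO 3, 1 without WT 3 and 1 with batch by subtype terms, and none of them was called. Among the 8075 genes the same settings gave 579, 918, 163 and 248. With no filter the number was 1 of 31 members, beside 507 of 17217 genes. A different effect on Sema5a in OPC_1 and Oligodendrocytes, where the estimates had opposite signs, was thus not shown.

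A list of 35 genes that work with these receptors (co-receptors, adhesion partners and intracellular effectors) was examined in the same fit. A total of 32 were tested in at least 1 subtype, with 152 tests. None was called, and the smallest FDR was 0.534. An unadjusted p under 0.05 was found in 6 tests (3.95%), 3 in each direction, beside 5.04% of the tests of all genes. Farp1, an exchange factor that binds class A plexins, was lower in Astrocytes_2 of Fmr1-KO mice, with 115.5, 107 and 130 CPM in WT and 53.6, 67.2 and 91.8 CPM in Fmr1-KO mice. Its log2 fold change was -0.66 ± 0.23 (edgeR unadjusted p = 0.00908). Mical1, an actin-oxidizing enzyme downstream of plexins, had 0.31 ± 0.11 in Astrocytes_1 (edgeR unadjusted p = 0.0195). Its mean was 62.7 CPM in WT and 65.9 CPM in Fmr1-KO mice. Chl1, an adhesion molecule that partners with Nrp1, had -0.49 ± 0.19 in Interneuron (edgeR unadjusted p = 0.0223). Dpysl4, of the CRMP family, had 0.42 ± 0.17 in OPC_1 (edgeR unadjusted p = 0.0238). The groups of mice overlapped for Mical1, Chl1 and Dpysl4. Positive estimates were found for 9 of 15 genes tested in Astrocytes_1, 5 of 15 in Astrocytes_2, 2 of 13 in Endothelial, 14 of 23 in Excitatory and 7 of 12 in Ganglionic. The counts were 8 of 16 in Interneuron, 8 of 11 in Microglia, 2 of 15 in OPC_1, 12 of 19 in Oligodendrocytes and 5 of 13 in Pericytes. Of all genes tested, from 49.4% (Astrocytes_2) to 51.1% (Excitatory) had positive estimates, with 50% in Endothelial and 50.5% in OPC_1.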

How the data were processed

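Reads of 17 InDrop libraries were aligned by the authors to mm10 with TopHat2 2.0.14 and assigned to RefSeq genes with ESAT, ignoring reads with several positions. The deposited UMI counts were not normalized. The authors also deposited the mouse and subtype of each cell and a size factor, which is a ratio obtained per batch with scran. Doublets they had marked were left out here. Counts were summed per mouse and subtype for mice with at least 10 cells. Levels are CPM of these sums. A call needed an FDR under 0.01 and a change of at least 15%. Genotypes were compared with edgeR 4.0.16 (quasi-likelihood, TMM, batch as covariate; R 4.3.3), with Benjamini-Hochberg adjustment over all genes of a subtype. The fits were also run on counts simulated for Excitatory, Astrocytes_1 and Oligodendrocytes. That simulation had no batch effect and larger changes than the members, so it does not show how well small changes are found. Ratios within a batch are of mean CPM plus 1. An upper limit for 0 UMIs is 3 counts of the summed total and, like Poisson intervals (95%), covers counting error only. Gene positions come from GENCODE for mm10. The named differences are the members, and the 4 receptor partners, with the smallest unadjusted p under 0.05. Alternatives were DESeq2 1.42.0, other filters and scalings, no batch term, a replicate block, thinned cells and each mouse left out. Members and lists were chosen with earlier results of these data known. Tables were made with Python 3.11.15.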

Additional observations from a re-analysis of the deposited data

How the results depend on the processing

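No member was called between genotypes, or for genotype by subtype, under any alternative run. The number of member tests at an unadjusted p under 0.05 was 5 and became 2 without the batch term, 10 with filterByExpr (158 tests), 13 with no filter (296 tests), 2 with DESeq2 and 2 to 6 with each mouse left out. It fell to 2 without WT 3 and to 3 without Fmr1-KO 2. With the deepest cell per barcode, an alternative chosen after seeing the data, it was 7. With the replicate block in place of the batch it was 3. Of the tests of all genes, 4.47% had an unadjusted p under 0.05 with filterByExpr, 4.08% with no filter and 1.65% with DESeq2. The share was 5.04% in the main fit. Same-numbered mice deviated together for numbers 1 and 3, which share a batch (for example r = 0.66 and 0.67 in Astrocytes_1), but not for number 2 (-0.43). WT 2 and Fmr1-KO 2 are of different batches, and the batch was not removed for these values. They therefore cannot show whether the numbers pair the mice. The 5 named differences kept their direction under all alternatives run, from 0.34 to 0.62 for Sema5b in Astrocytes_1 (unadjusted p under 0.05 in 15 of 15 fits) and from -0.94 to -0.23 for Plxna2 in Endothelial (12 of 15). The others came, without WT 1, as near to 0 as -0.02 (Plxna1), 0.10 (Sema5a in OPC_1) and -0.04 (Sema5a in Oligodendrocytes). The change of Fmr1 ranged from -2.16 to -1.88 with each mouse left out. The number of members at 50 CPM or more was 25 to 27. The highest subtype changed for at most 7 of 31 members, most with cells thinned to 700 UMIs. It was Endothelial for Sema4c in 6 settings. For Plxna4 it was SVZ in 3 settings, among them the WT mice alone. With at least 20 cells per mouse, only Fmr1-KO 3 was left for SVZ, and Sema3a and Sema6c there were at 91.8 and 61.2 CPM. The 9 members below the filter on low counts were not tested in the main comparison.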

Other observations

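A small subtype with high Ms4a7, a macrophage marker, stood outside the comparisons because 39 of its 45 cells came from WT 3. Its cells held 256 UMIs of Nrp1, or 2306 CPM with all cells pooled (95% Poisson interval 2032 to 2606), beside a mean of 1151 CPM in Endothelial. Plxnb2 was at 441 CPM (326.5 to 583.5) and Plxnd1 at 225 CPM (145.7 to 332). With this subtype included by its value in WT 3, an alternative chosen after seeing the data, it would be the highest for Nrp1, Nrp2 and Sema4a. Its cells held only 7 UMIs of Nrp2 (63.05 CPM pooled, 25.35 to 129.9) and 16 of Sema4a (144 CPM, 82.37 to 234). The pooled value of Nrp2 lay below its mean of 68.2 CPM in Endothelial. The value of a single mouse has no replicate check.

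With no filter on low counts, the lowest p values of any member were those of Sema7a in Microglia (log2 fold change -2.42, edgeR unadjusted p = 0.0026, FDR = 0.9999) and Plxnb3 in Astrocytes_1 (3.26, edgeR unadjusted p = 0.0027, FDR = 0.298). A UMI was found in 1.73% and 0.19% of the cells. Of their UMIs, 14 came from WT 1 for Sema7a and 14 from Fmr1-KO 3 for Plxnb3. In the same fit, 3 members that meet in SVZ cells had negative estimates in Interneuron, chosen after their values were seen. Nrp1 had 68.99, 87.1 and 9.79 CPM in WT and 27.3, 17.2 and 36.1 CPM in Fmr1-KO mice, with a log2 fold change of -0.96 ± 0.33 (edgeR unadjusted p = 0.00387, FDR = 0.66). Nrp2 had -0.88 ± 0.32 and Sema3c -0.97 ± 0.36, at unadjusted p values of 0.0064 and 0.0075. For Sema3c the estimate was positive in Astrocytes_2 (2.72, edgeR unadjusted p = 0.0082). The groups overlapped for each, and a UMI was found in only 4.42%, 7.76% and 3.52% of the cells. WT 3, with 5 UMIs of Nrp1, had the lowest value of all mice. Sema3c is itself on the list of SVZ markers, and the 4 other markers of that list were at means of at most 8.68 CPM in Interneuron of either genotype. A part of SVZ cells in the Sema3c values was not tested.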
